A study of Mus musculus with 6 samples.

Results

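Open chromatin regions that lie far from protein-coding genes were described in mouse hepatocyte nuclei. Peaks from 6 ATAC-seq libraries were merged where they shared at least 1 bp, which gave 109853 regions on chromosomes 1 to 19 and X, and 51749 of these had a peak in all 6 libraries (shared regions). A shared region was kept when its midpoint lay more than 50 kb from the span of every protein-coding gene in the RefSeq table of GRCm38, the assembly also called mm10. This left 5590 regions, or 10.8% of the shared regions, called far regions here. The other 46159 shared regions served for comparison. ATAC-seq uses the Tn5 transposase to cut and tag DNA that is not packed by nucleosomes, so the number of tags at a place reads how open it is.

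The mice were male and carried 2 floxed genes (F/F), Ncor1 and another that is not reported here, in both groups. The control group received an adeno-associated virus (AAV) that carried eGFP, and the dKO group received an AAV that carried Cre recombinase, which removes floxed DNA. Each group had 3 libraries. Livers were taken on day 5 after the virus at ZT10, that is zeitgeber hour 10, and nuclei positive for HNF4a, a transcription factor of hepatocytes, were sorted. The labels give neither the promoter that drives Cre nor the age of the mice, and do not tie libraries to animals. The p-values therefore rest on the spread among these 6 libraries, which may be technical.

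Open regions far from genes are mostly enhancers, boundary elements bound by CTCF, and starts of noncoding RNAs. An enhancer is bound by transcription factors and can act on a promoter that lies far along the same chromosome. In hepatocytes such sites are bound by HNF4A, FOXA and CEBP proteins and by nuclear receptors, among them the glucocorticoid receptor and the liver X receptors. NCOR1 is a corepressor that is recruited by nuclear receptors and acts in a complex with the histone deacetylase HDAC3 and the proteins TBL1X and TBL1XR1. The title of the series concerns such corepressors and the activation of hepatic gluconeogenesis that depends on the glucocorticoid receptor. The nearest gene of a region is given below as a position only, since no measurement here links a region to a gene.

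The name "far from any gene" held for protein-coding genes only. Of the 5590 far regions, 1411 (25.2%) had their midpoint inside the span of a gene of another type, and 1326 of these were inside a long noncoding RNA (lncRNA). In all, 4437 (79.4%) lay inside or within 50 kb of some gene, and 1153 (20.6%) lay more than 50 kb from every gene in the table. The median distance to the nearest protein-coding span was 115 kb (quartiles 73.0 and 212 kb) and the largest was 2138 kb. The 79 far regions within 1 kb of the 50 kb limit had a median of 12.2 tags and a median log2 fold change of -0.03, and the 74 shared regions within 1 kb on the other side had 13.1 tags and 0.01.

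Some far regions lay at the start of a lncRNA, and these are the members whose sequence is at hand. RefSeq promoter windows of GRCm38.p6, which hold 250 bases before and 50 bases after a start, were overlapped by 150 far regions, at 154 lncRNAs. Among these, 6 regions were higher (4.0%) and 33 were lower (22.0%) in dKO (tests below). The shares were 7.85% and 16.8% over far regions, and 8.19% and 11.6% over all shared regions. The windows of 2 regions that were higher (Gm28231 and Gm31342) and 3 that were lower (Gm34805, Gm29924 and Gm35291) are printed 5′ to 3′ in the direction of the lncRNA, because the region that changed lay over or just before the start of the transcript. Capitals mark the bases inside the merged open region. The windows are chr9:88259637-88259936 (plus strand) for Gm28231, chr15:67039343-67039642 (plus) for Gm31342, chr2:160249897-160250196 (minus) for Gm34805, chr5:51289281-51289580 (minus) for Gm29924 and chr10:23711438-23711737 (minus) for Gm35291.
Gm28231: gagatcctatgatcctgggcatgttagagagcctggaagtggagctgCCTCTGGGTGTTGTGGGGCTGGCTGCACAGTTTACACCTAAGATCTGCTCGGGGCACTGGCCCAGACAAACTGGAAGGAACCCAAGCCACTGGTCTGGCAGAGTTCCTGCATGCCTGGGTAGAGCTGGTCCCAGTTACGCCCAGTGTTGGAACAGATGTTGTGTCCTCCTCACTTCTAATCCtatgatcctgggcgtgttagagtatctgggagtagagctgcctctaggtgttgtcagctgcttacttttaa
Gm31342: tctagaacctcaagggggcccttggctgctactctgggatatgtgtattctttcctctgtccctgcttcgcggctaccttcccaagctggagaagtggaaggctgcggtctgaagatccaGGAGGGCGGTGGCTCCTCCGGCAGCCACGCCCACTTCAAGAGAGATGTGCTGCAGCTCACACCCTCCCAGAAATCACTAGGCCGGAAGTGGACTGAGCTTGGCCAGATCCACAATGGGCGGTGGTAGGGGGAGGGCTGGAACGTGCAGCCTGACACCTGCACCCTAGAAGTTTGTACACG
Gm34805: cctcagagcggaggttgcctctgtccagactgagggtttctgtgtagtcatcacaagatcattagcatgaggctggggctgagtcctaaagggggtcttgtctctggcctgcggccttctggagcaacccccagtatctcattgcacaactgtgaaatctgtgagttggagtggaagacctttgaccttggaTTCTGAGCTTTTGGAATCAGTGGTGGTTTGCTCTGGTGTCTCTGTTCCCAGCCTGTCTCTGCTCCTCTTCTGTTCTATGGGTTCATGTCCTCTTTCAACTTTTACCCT
Gm29924: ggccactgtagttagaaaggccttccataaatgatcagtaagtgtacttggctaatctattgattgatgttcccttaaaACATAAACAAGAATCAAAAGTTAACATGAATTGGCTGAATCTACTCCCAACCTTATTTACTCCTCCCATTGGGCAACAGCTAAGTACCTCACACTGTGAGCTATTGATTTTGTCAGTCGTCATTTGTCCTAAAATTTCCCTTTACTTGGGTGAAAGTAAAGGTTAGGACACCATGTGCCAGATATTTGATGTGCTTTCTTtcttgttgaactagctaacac
Gm35291: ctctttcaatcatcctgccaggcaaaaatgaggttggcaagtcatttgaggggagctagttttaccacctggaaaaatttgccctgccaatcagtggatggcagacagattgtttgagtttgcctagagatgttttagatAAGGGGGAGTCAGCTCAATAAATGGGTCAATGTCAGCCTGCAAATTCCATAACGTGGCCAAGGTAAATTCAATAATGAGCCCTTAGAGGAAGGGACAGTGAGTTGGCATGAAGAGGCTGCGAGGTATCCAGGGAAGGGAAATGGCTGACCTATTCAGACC

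The start of each lncRNA is base 251 of its window. The open region covered bases 48 to 229 of the Gm28231 window and ended before the start, and it covered bases 121 to 300 in Gm31342, 193 to 300 in Gm34805, 80 to 279 in Gm29924 and 141 to 300 in Gm35291, so that those 4 included the start. The glucocorticoid response element, searched on both strands as ACA and TGTNC with 3 bases between them, matched the Gm29924 window at bases 245 to 255 and again, overlapping, at 247 to 257, inside the open part. The nuclear receptor core site AGGTCA matched Gm35291 at bases 286 to 291, inside the open part, and Gm34805 at bases 183 to 188, just outside it. The loose CEBP motif TTNCNNAA also matched inside the open part of these 3 windows. The windows of Gm28231 and Gm31342 held no match to any motif searched, which says only that these letters are absent there. The motifs did not sort the windows by direction: of 2 more windows searched, that of Gm31286, at a region that was higher, held a loose CEBP match, and that of Gm28644, at a region that was lower, held none.

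Over the 172 lncRNA windows that overlapped a far region, counted as pairs of a window and a region, the CTCF core, searched as CCANNAG directly followed by NNGGC, was found in 6.40%, against 2.58% of all 11575 lncRNA windows and 2.43% of all 32851 promoter windows. AGGTCA was in 27.9% against 19.1% of lncRNA windows and 16.3% of all windows, and the loose CEBP motif TTNCNNAA was in 57.0% against 46.9% and 40.7%. The FOXA motif TGTTTAC was in 6.98% against 4.84% and 3.65%. The glucocorticoid response element was in 2.91% against 3.68% and 3.11%, and the AP-1 motif TGANTCA was in 7.56% against 9.31% and 7.81%. The other 3 motifs were the direct repeat of HNF4A and RXR, searched as 2 copies of AGGNCA with 1 A between them, the HNF4A site CAAAGTCCA and the strict CEBP site TTGCGCAA, which were in 0, 2 and 1 of the 172 windows. AGGTCA can lie within the direct repeat, and TTGCGCAA always matches TTNCNNAA. These shares are descriptions of windows, and no test was made of them.

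In signal, far regions were weaker than the other shared regions in every library. Values are the authors' normalized tag counts, which HOMER scales to library depth. The median far region had 12.3, 12.1 and 12.7 tags in control 1, 2 and 3 and 11.5, 9.93 and 12.6 in dKO 1, 2 and 3. The median of the other shared regions was 16.7, 16.8 and 16.8 in controls and 16.1, 14.1 and 18.1 in dKO libraries. Among these, regions 5 to 50 kb outside a span had medians near those of far regions. They were 12.3, 12.3 and 12.6 tags in controls and 12.4, 10.8 and 13.6 in dKO libraries. Low signal was thus not particular to far regions. Regions within 5 kb outside a span had medians of 25.1, 23.8 and 23.8 tags in controls. On the log2(value + 1) scale the far regions' median minus that of the other shared regions was -0.41, -0.44 and -0.38 in controls and -0.45, -0.47 and -0.49 in dKO libraries, with a mean of -0.44 ± 0.040 (SD, n = 6; exact sign-flip permutation test over libraries, 2-sided, p = 0.03125, the smallest that 6 libraries allow). All 6 libraries measured the same regions, so this p-value concerns agreement among libraries and not the spread among regions.

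The gap between far and other regions was wider in all 3 dKO libraries than in any control. The group difference was -0.06 on the log2 scale, and the exact permutation test gave p = 0.1, the smallest that 3 against 3 libraries allow. When regions with a peak in at least 3 libraries were used, each library without the regions it lacks, this difference was gone (0.0015, exact permutation p = 0.9). It grew with distance: at 50 to 100 kb it was -0.01 and the groups overlapped (exact permutation p = 0.7), while it was -0.07 at 100 to 200 kb, -0.09 at 200 to 500 kb and -0.19 beyond 500 kb, with no overlap between groups in these 3 bands (exact permutation p = 0.1 each). Far regions took 8.20 ± 0.205% of the tags of shared regions in control and 7.92 ± 0.211% in dKO libraries (SD, n = 3 each; exact permutation p = 0.2), and these shares overlapped.

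**Figure D1:**
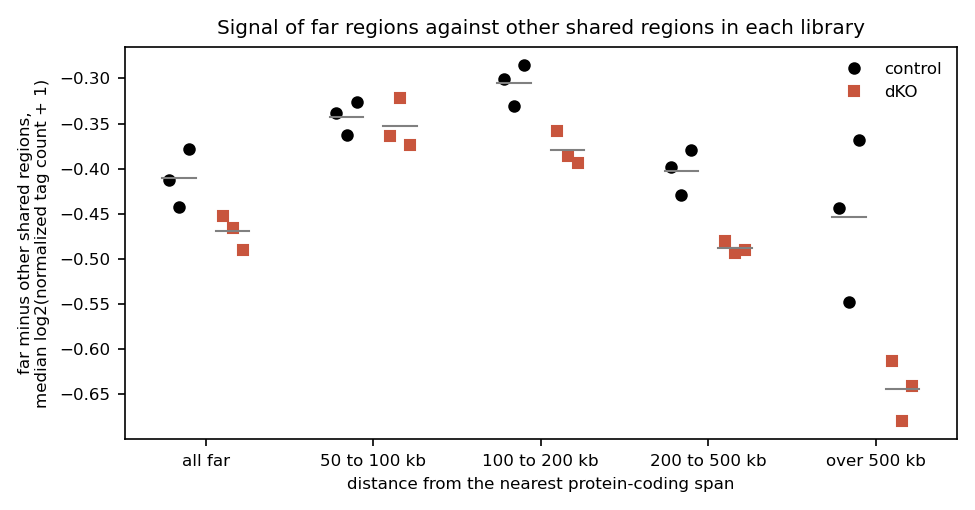
Median log2(normalized tag count + 1) of far regions minus that of the other shared regions, for all far regions and by distance from the nearest protein-coding span. Black circles are the 3 control libraries, red squares the 3 dKO libraries and grey lines the group means. All points lie below 0, and the dKO points lie below the control points except at 50 to 100 kb.

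Far regions were as long as the others but stood out more from their surroundings. The merged length had a median of 209 bp, against 210 bp. The focus ratio, the share of a peak's tags near its centre as HOMER reports it, had a median of 0.711 in far and 0.684 in other regions of control 1, and it was higher in far regions in all 6 libraries. The fold over the local surroundings had a median of 22.7 against 16.2 in control 1 and 15.5 against 10.6 in dKO 3, and it too was higher in far regions in all 6 libraries.

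In dKO, far regions fell more often than they rose. By limma with Benjamini-Hochberg adjustment over all 51749 shared regions (threshold 0.05), 439 far regions (7.85%) were higher and 939 (16.8%) were lower in dKO. Over all shared regions 8.19% were higher, 11.6% were lower and 19.8% were called either way, so the share that was higher was near the background and the share that was lower was above it. Among the other shared regions 8.23% were higher and 11.0% were lower. The median log2 fold change was -0.06 for far regions and -0.02 for all shared regions. The difference between these shares was not tested, since regions are not replicates. The change in dKO of far against other regions was tested by the group difference above (exact permutation p = 0.1).

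The groups did not overlap in 689 far regions with dKO above control and in 1284 with dKO below (12.3% and 23.0%; 12.6% and 15.8% of all shared regions). Of the called regions, 413 of the 439 that were higher and 851 of the 939 that were lower had no overlap. Changes past 2-fold were seen in 71 regions that were higher and 98 that were lower, which is 1.27% and 1.75% of far regions beside 1.09% and 0.808% of all shared regions. In the regions called higher, the median library difference from the control mean was 0.88, 0.80 and 0.50 on the log2 scale in dKO 1, 2 and 3, and in those called lower it was -0.73, -0.69 and -0.47. Library dKO 3 thus lay nearest to the controls in both directions. In a sorted bulk sample, fewer nuclei with an open site and less cutting per nucleus cannot be told apart.

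Of the distance bands, the one beyond 500 kb had the highest share called lower. The share lower was 15.9% at 50 to 100 kb, 17.8% at 100 to 200 kb, 15.9% at 200 to 500 kb and 21.8% of the 289 regions beyond 500 kb. The excess of falls was not particular to far regions: those within 5 kb outside a span had 13.5% lower and 5.03% higher, so that 72.8% of their calls were lower, against 68.1% for far regions, and their median log2 fold change was -0.09. Regions 5 to 50 kb outside a span had 12.2% lower and 8.84% higher, and regions inside a span had 9.96% lower and 8.80% higher. Far regions inside a lncRNA span had 15.5% lower and 8.30% higher, and those more than 50 kb from every gene type had 17.1% lower and 8.15% higher.

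**Figure D2:**
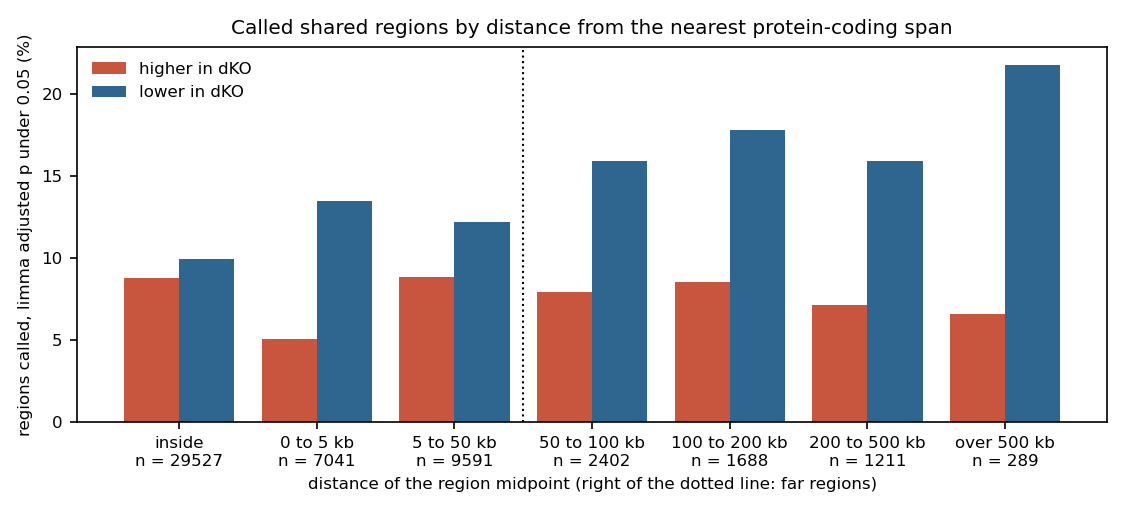
Share of shared regions called higher (red) or lower (blue) in dKO by limma (adjusted p under 0.05), by distance of the midpoint from the nearest protein-coding span, with the number of regions under each pair of bars. The blue bars right of the dotted line, the far regions, stand between 15.9% and 21.8%, and the inside bar stands at 9.96%.

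Under median centring, strong far regions were lower most often. Of the 1204 far regions with a mean of 20 to 40 tags, 30.2% were lower and 4.32% were higher, and of the 177 above 40 tags, 37.3% were lower and 1.13% were higher. Other shared regions of the same signal had 16.9% lower at 20 to 40 tags and 17.3% above 40. This rise with signal depended on the scaling. Under quantile normalization, which forces one distribution of values on all libraries, 18.1% of far regions were lower at 10 to 20 tags, 19.1% at 20 to 40 and 17.5% above 40, against 9.40%, 9.45% and 8.09% of the other regions. Cyclic loess gave 18.3%, 19.2% and 19.2% for far regions, again without a rise above 10 tags. At 20 to 40 tags, 9.39% of far and 4.07% of other regions were lower without dKO 2, and 13.0% and 5.76% without dKO 1.

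**Figure D3:**
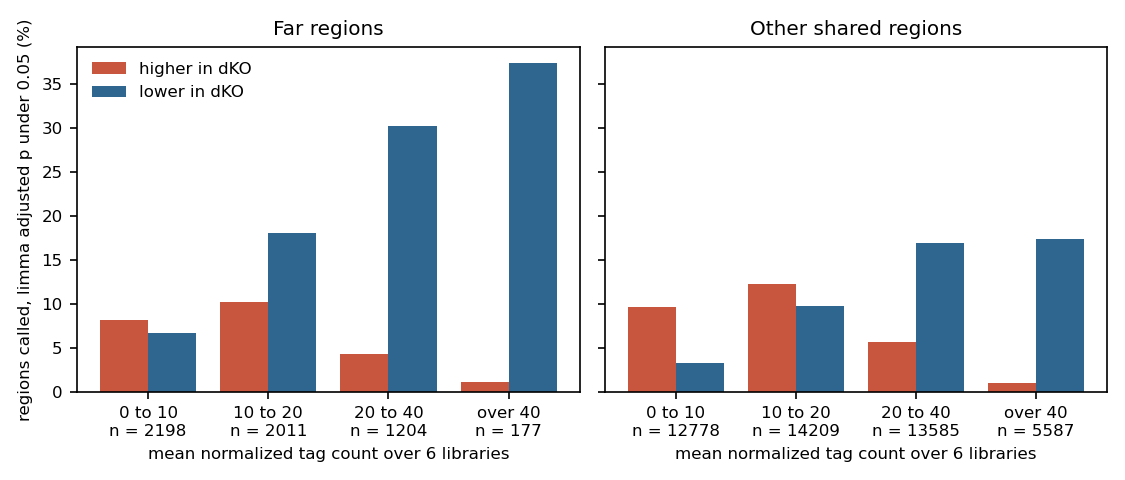
Share of regions called higher (red) or lower (blue) in dKO by limma (adjusted p under 0.05), in bands of the mean normalized tag count over 6 libraries, for far regions on the left and other shared regions on the right. The blue bar of far regions rises from 6.64% below 10 tags to 37.3% above 40 tags under the median centring shown, while under quantile normalization the bar above 40 tags would stand at 17.5%.

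Peak lists came in 2 width classes, 108 bp (control 1, dKO 1, dKO 2) and 166 or 172 bp (control 2, control 3, dKO 3), and the results were set against them. Each class has an arm of 1 library. The spread came from 1 fit of all 6 libraries, that is from dKO 1 and dKO 2 and from control 2 and control 3. The same spread served both classes. Within the 108 bp class, 1 control against 2 dKO libraries, 439 far regions were higher and 793 (14.2%) lower by limma, beside 7.8% and 14.5% of all shared regions, so there the far share that was lower was no higher than that of all shared regions. At 20 to 40 tags this class had 26.7% of far and 23.0% of other regions lower. Within the wide class, 2 controls against 1 dKO library, limma called 0 far regions and 0 shared regions in all, and 1057 far regions had an unadjusted p under 0.05. The median log2 fold change of far and other regions was -0.05 and -0.03 in the 108 bp class and -0.08 and 0.02 in the wide class. The counts also rested on dKO 1 and dKO 2: without dKO 1 there were 174 higher and 390 lower far regions, and without dKO 2 there were 150 and 282.

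The sorted cell type was checked on shared regions within 50 kb of a marker gene that was their nearest protein-coding gene. Such regions were found at 10 of 12 hepatocyte markers, 8 of 9 endothelial, 7 of 8 stellate and fibroblast, 3 of 6 cholangiocyte, 1 of 8 Kupffer cell and macrophage and 2 of 8 lymphocyte markers. The macrophage markers Clec4f, Adgre1, Cd68 and Marco and the biliary markers Krt19 and Krt7 had none. The summed signal at hepatocyte markers was 1431 to 1546 tags in controls and 962 to 1327 in dKO libraries, with 16 of 38 regions lower and 1 higher. At endothelial markers it was 383 to 478 and 321 to 414 tags, with 4 of 29 regions lower and 1 higher, and at stellate and fibroblast markers it was 99.1 to 108 and 92.9 to 111 tags with 0 of 12 lower and 1 higher. Sums at cholangiocyte (78.6 to 101 and 74.8 to 102 tags), macrophage (25.7 to 26.5 and 16.1 to 28.4) and lymphocyte markers (51.4 to 64.9 and 46.4 to 59.7) overlapped between the groups. The part of these differences in the far regions' results was not tested. Over all shared regions 11.6% were lower and 8.19% higher, and the counts at markers are to be read beside these shares. Those counts were not split by signal, with which the share called lower rose under median centring.

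Among the regions that rose, one with the smallest p lay beyond Foxo1, which encodes a transcription factor that drives gluconeogenic genes when insulin is low. This region, chr3:52574445-52574677, lies 224 kb from the Foxo1 span and 5574 bp from the nearest gene of any type, the lncRNA Gm40047. Its signal was 9.95, 9.72 and 10.9 tags in control 1, 2 and 3 and 31.8, 37.6 and 30.1 in dKO 1, 2 and 3, so the groups were far apart. On the log2 scale this is a rise of 1.67 (SE 0.17; adjusted p = 0.000403 by limma). A second region 168 kb from Foxo1, inside the lncRNA Gm30173, had 5.64, 4.64 and 6.17 tags in controls and 14.6, 12.9 and 13.0 in dKO libraries, with no overlap (log2 fold change 1.23, SE 0.17, limma adjusted p = 0.000995).

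Near Tbl1xr1, which encodes a subunit of the NCOR complex, 2 leading regions rose. The first (chr3:21825330-21825584, 251 kb away) had 4.63, 4.02 and 4.49 tags in controls and 17.1, 14.2 and 13.4 in dKO libraries, and its log2 fold change was 1.62 (SE 0.17, limma adjusted p = 0.00053). The second (chr3:21979435-21979617, 96.7 kb away) had 5.38, 5.98 and 6.78 tags in controls and 17.7, 14.7 and 14.4 in dKO libraries. Both were below the median far region in each control and above it in each dKO library.

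Near Abca1, which encodes the transporter that moves cholesterol out of cells and is a classical target of liver X receptors, 2 regions rose inside lncRNAs. One (chr4:53217630-53217846) lies inside Lexis1, a lncRNA known to be induced by liver X receptors in liver. It had 17.0, 11.9 and 11.4 tags in controls and 37.9, 31.6 and 30.7 in dKO libraries, with no overlap (log2 fold change 1.33, SE 0.17, limma adjusted p = 0.000752). The other lies inside Mexis, a lncRNA known to amplify Abca1 expression in macrophages. It had 19.4, 15.7 and 17.4 tags in controls and 27.4, 25.7 and 29.3 in dKO libraries, again with no overlap (log2 fold change 0.69, SE 0.13, limma adjusted p = 0.00431).

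Regions near 2 genes of development and cell fate also led the list. The region 210 kb from Sox4, a transcription factor of progenitor cells, lies inside the lncRNA 2610307P16Rik and had 4.68, 5.94 and 6.34 tags in controls and 25.8, 16.7 and 15.1 in dKO libraries. The region 65.0 kb from Hes1, a repressor induced by Notch signalling, had 6.76, 5.65 and 6.73 tags in controls and 21.2, 16.8 and 14.8 in dKO libraries. The log2 fold changes were 1.64 (SE 0.21) and 1.38 (SE 0.19), with limma adjusted p = 0.000752 and 0.000924. In both, dKO 1 was the highest library and dKO 3 the lowest of the dKO group, still above every control.

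The other leading regions that rose were nearest to Stt3b, Gm30679, Nrp1, Fggy, Nt5e and Armc2. Stt3b encodes a catalytic subunit of the oligosaccharyltransferase and Nrp1 a receptor for VEGF and semaphorins. Nt5e encodes the enzyme that makes adenosine from AMP outside cells. The Nt5e region covers the Gm28231 window printed above, upstream of its start, and had 4.04, 5.60 and 4.15 tags in controls and 14.0, 11.2 and 12 in dKO libraries (log2 fold change 1.33, SE 0.17, limma adjusted p = 0.000752). The region over the Gm31342 window, 63.3 kb from St3gal1, had 6.92, 7.51 and 7.01 tags in controls and 20.3, 15.2 and 15.6 in dKO libraries (log2 fold change 1.20, SE 0.17, limma adjusted p = 0.00121).

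Among the regions that fell, the largest change of all far regions lay between Veph1 and its neighbours. Veph1 encodes a protein with a pleckstrin homology domain, and the region chr3:66576754-66576944 lies 280 kb from it. It had 29.7, 30.2 and 31.2 tags in controls and 4.55, 3.66 and 11.7 in dKO libraries. On the log2 scale this is a change of -2.12 (SE 0.24; adjusted p = 0.000628 by limma). The controls were close together and dKO 3 kept the most signal of the dKO group.

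Regions near Mycn and Jag1 fell as well. Mycn encodes a MYC family transcription factor, and the region 61.1 kb from it (chr12:13002862-13003062) had 52.3, 65.2 and 68.9 tags in controls and 14.3, 11.4 and 33.0 in dKO libraries. Jag1 encodes a Notch ligand, and the region 438 kb from it (chr2:137553888-137554176) had 21.9, 20.1 and 20.3 tags in controls and 4.02, 3.97 and 10.4 in dKO libraries. The log2 fold changes were -1.69 (SE 0.23) and -1.66 (SE 0.23), with limma adjusted p = 0.00091 and 0.000995, and the groups did not overlap in either. The Jag1 region lies 109 kb from the nearest gene of any type.

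The remaining leading regions that fell were nearest to Gm765, Elavl2, Cpsf6, Phlda1, Vstm2b, Cenpw, Sp4, Mgmt and Auh. The strongest in controls was the Phlda1 region, inside the lncRNA Gm30624, with 54.1, 51.1 and 51.5 tags in controls and 23.4, 20.8 and 32.7 in dKO libraries. The region nearest to Cenpw, which encodes a centromere protein, had 43.9, 38.0 and 45.4 tags in controls and 11.1, 10.7 and 23.8 in dKO libraries. In all 12 leading regions that fell, dKO 3 had the highest value of the dKO group.

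**Figure D4:**
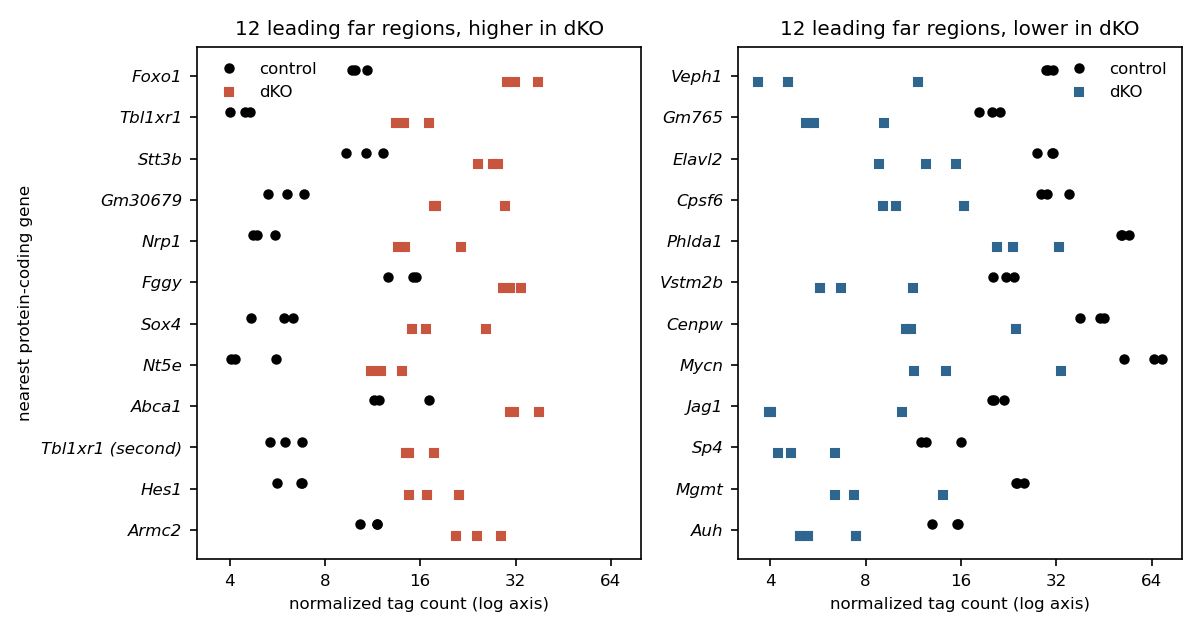
Normalized tag count (log axis) in each library of the 12 far regions with the smallest p that were higher in dKO (left, red squares) and the 12 that were lower (right, blue squares), with controls as black circles, named by the nearest protein-coding gene. Regions were chosen for no overlap, so the separation of the groups is given by the choice, and in the right panel 1 dKO library, dKO 3, stands closest to the controls in each row.

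Of the 150 regions that overlapped a lncRNA promoter window, some of which end before the start, 4.0% were higher and 22.0% lower. The shares were 7.85% and 16.8% over far regions, and 8.19% and 11.6% over all shared regions. The median log2 fold change of these 150 regions was -0.13, against -0.05 for the other far regions. These regions were also stronger, with a median mean of 19.0 tags against 12 for the other far regions. The region over the Gm34805 start had 44.9, 40.4 and 39.3 tags in controls and 6.30, 8.52 and 24.4 in dKO libraries (log2 fold change -1.75, SE 0.29, limma adjusted p = 0.00223). The region over the Gm29924 start, whose nearest protein-coding gene is Ppargc1a at 165 kb, had 24.3, 25.3 and 37.3 tags in controls and 4.66, 6.32 and 17.1 in dKO libraries (log2 fold change -1.63, SE 0.29, limma adjusted p = 0.00314). Ppargc1a encodes PGC-1α, a coactivator of gluconeogenic genes. The region over the Gm35291 start, 73.7 kb from Rps12, had 17.5, 17.7 and 12 tags in controls and 4.55, 4.81 and 9.66 in dKO libraries (log2 fold change -1.18, SE 0.22, limma adjusted p = 0.00367).

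Members were then counted by gene lists of the nearest protein-coding gene, and 5 genes stood in more than 1 list. Over all shared regions 8.19% were higher and 11.6% lower, and over far regions 7.85% and 16.8%, and each list is to be read beside these. Hepatocyte identity genes, such as Foxa2, Cebpb and Nr5a2, were nearest to 69 far regions, with 17 lower (24.6%) and 2 higher (2.90%) and a median log2 fold change of -0.19. The count that was lower was 10 of 69 under quantile normalization and 11 under loess, beside 15.0% and 15.2% of all far regions. It was 3 without dKO 1 or dKO 2, beside 6.98% and 5.04%, and 20 without dKO 3, beside 19.4%. The excess over far regions was thus not kept under quantile normalization or without dKO 1 or dKO 2. These 69 regions were also stronger, with control medians of 16.3, 13.8 and 18.4 tags against 12.3, 12.1 and 12.7 for all far regions. The region 228 kb from Foxa2, a pioneer factor of liver enhancers, had 29.9, 25.5 and 36.1 tags in controls and 8.92, 12.7 and 17.5 in dKO libraries, with no overlap (log2 fold change -1.14, SE 0.19, limma adjusted p = 0.00246). The region 212 kb from Nr5a2, a nuclear receptor of bile acid synthesis, had 28.2, 30.1 and 38.2 tags in controls and 14.9, 14.2 and 24.1 in dKO libraries (log2 fold change -0.79, SE 0.16, limma adjusted p = 0.00518).

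Glucocorticoid and gluconeogenic genes were nearest to 44 far regions, of which 13 were higher (29.5%) and 10 lower (22.7%). Foxo1 alone was nearest to 24 of these, with 9 higher and 5 lower. As single libraries were left out, the counts ranged from 7 to 17 higher and from 2 to 10 lower, lowest without dKO 2. The region 102 kb from Foxo1 had 16.4, 13.1 and 15.1 tags in controls and 25.6, 29.5 and 27.3 in dKO libraries, with no overlap (log2 fold change 0.91, SE 0.15, limma adjusted p = 0.00245). The 10 lower calls were 4 under quantile normalization and 5 under loess, while 14 regions were higher under each.

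The nuclear receptor and clock list had 15 far regions, 3 higher and 1 lower. Those that were higher lay near Npas2, a clock transcription factor (2 regions), and Thrb, the main thyroid hormone receptor of liver, and the one that was lower lay near Ppara, the receptor that drives fat oxidation. None of the 4 was called without dKO 1 (limma adjusted p = 0.0619 to 0.160) or without dKO 2 (0.0669 to 0.141), and the Ppara region was not called under quantile normalization (0.0609) or loess (0.0532) either. Lipid and bile acid genes had 25 far regions, 3 higher and 2 lower. The 3 were those near Abca1 described above and a region 78.6 kb from Lipc, which encodes hepatic lipase, with 4.52, 6.41 and 4.77 tags in controls and 9.21, 7.16 and 11.3 in dKO libraries. The count of 2 was 0 without dKO 1, dKO 2, control 1 or control 2, and also without centring, under quantile normalization and under loess.

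Developmental transcription factors were nearest to 335 far regions, with 38 higher (11.3%) and 59 lower (17.6%), both near or above the background. These ranged from 18 to 44 and from 15 to 65 as single libraries were left out, both lowest without dKO 2. Insulin and growth factor genes had 74 far regions, 8 higher and 10 lower (1 to 12 and 5 to 15 with single libraries left out). The region 105 kb from Irs2, an insulin receptor substrate of liver, had 46.5, 49.0 and 49.7 tags in controls and 26.2, 24.3 and 35.3 in dKO libraries (log2 fold change -0.70, SE 0.11, adjusted p = 0.00219 by limma). It was the only one of 15 far regions nearest to Irs2 that was called.

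Neural adhesion and synaptic genes, which border many large gene deserts and are little used in hepatocytes, were nearest to 140 far regions. Of these, 35 were lower (25%) and 8 higher (5.71%), beside 16.8% and 7.85% of all far regions, and their median log2 fold change was -0.17. The count that was lower ranged from 16 without dKO 2 to 38 without dKO 3. Gpc5, a heparan sulfate proteoglycan gene, was nearest to 17 far regions, of which 8 were lower and 0 higher. The region 926 kb from Gpc5 had 33.1, 27.2 and 32.5 tags in controls and 10.1, 8.05 and 18.7 in dKO libraries (log2 fold change -1.28, SE 0.19, limma adjusted p = 0.00146).

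Far regions were gathered in some gaps between protein-coding genes. They lay in 1367 gaps, of which 428 held a single far region and 24 held 20 or more. Over all shared regions 8.19% were higher and 11.6% lower, and over far regions 7.85% and 16.8%. The counts in each gap are to be read beside these shares. The gap from Myc, the proliferation factor, to Gsdmc held the most, 40, with 9 higher and 4 lower. The gap from Foxo1 to Cog6 had 30, with 12 higher and 5 lower, and the gap from Agtr1b to Tbl1xr1 had 26, with 8 higher and 1 lower. Their median log2 fold changes were 0.13, 0.29 and 0.32. Other gaps with many far regions went the other way: Ly86 to Rreb1 had 22 with 10 lower and 1 higher, Bcl6 to Lpp had 23 with 9 lower and 1 higher, and Pax1 to Foxa2 had 23 with 6 lower and 0 higher. The gap from Cdh26 to 4930591A17Rik held 21 and none was called. These gaps were picked for the text after their values were seen.

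With single libraries left out, the 12 in the Foxo1 gap ranged from 6 to 12, the 8 in the Tbl1xr1 gap from 4 to 10 and the 9 in the Myc gap from 4 to 12. The 10 between Ly86 and Rreb1 ranged from 2 to 11, the 9 between Bcl6 and Lpp from 1 to 9 and the 6 between Pax1 and Foxa2 from 3 to 9. All 6 were lowest without dKO 1 or dKO 2. Quantile normalization and loess gave 6 lower between Ly86 and Rreb1, and 1 or 2 lower, in place of 5, between Foxo1 and Cog6. For the Myc gap each gave 1 lower in place of 4. The summed signal of the Tbl1xr1 gap was 396, 359 and 431 tags in controls and 485, 412 and 465 in dKO libraries, which overlap. That of the Ly86 gap was 554, 574 and 517 tags in controls and 420, 347 and 486 in dKO libraries, which do not. Among the 181 gaps with at least 3 called far regions, the calls were all lower in 68, all higher in 20 and mixed in 93.

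**Figure D5:**
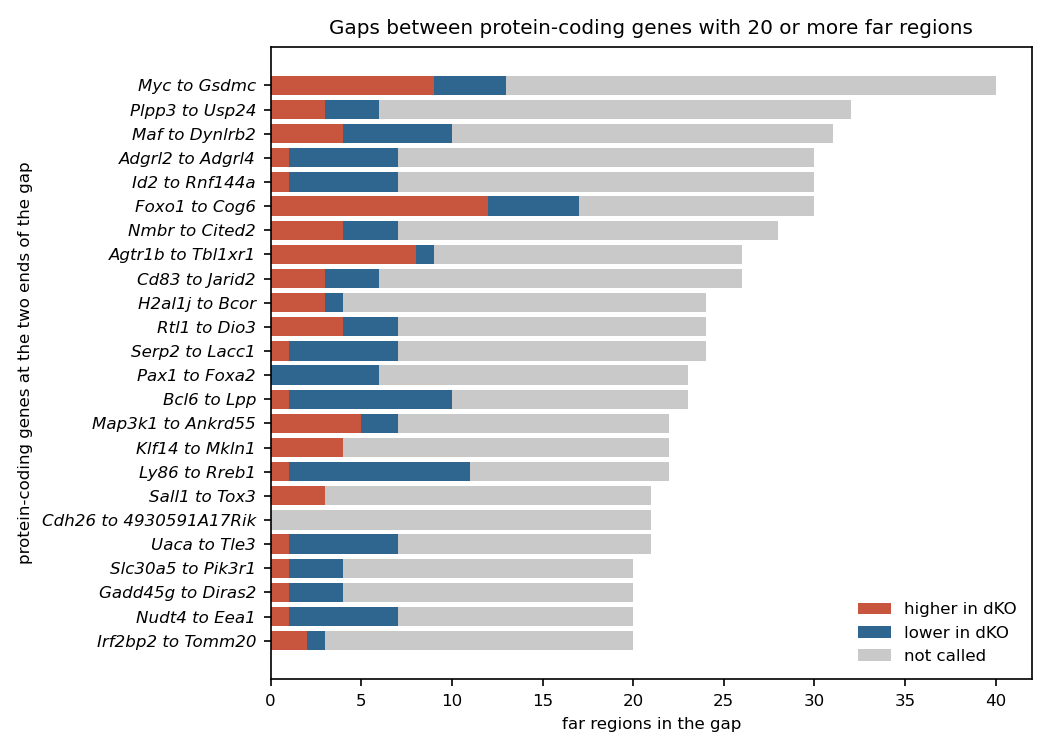
Number of far regions in each of the 24 gaps between protein-coding genes that hold 20 or more, split into those called higher in dKO (red), lower (blue) and not called (grey). The gap from Foxo1 to Cog6 has the most that were higher, 12, and the gap from Ly86 to Rreb1 the most that were lower, 10.

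Within gaps, neighbours with midpoints at most 20 kb apart formed runs. There were 3194 runs, a number that includes the 2016 far regions (36.1% of all) that stood alone. Counts in runs are likewise to be read beside 7.85% higher and 16.8% lower over far regions, and 8.19% and 11.6% over all shared regions. The longest run, 17 regions over 133 kb of chromosome 2, lies between Cebpb, a transcription factor of hepatocyte metabolism, and Ptpn1, which encodes a phosphatase that acts on the insulin receptor. Of these 17, 8 were lower and 0 higher, and the count was 1 without dKO 1, 1 without dKO 2, 2 without control 1, 4 without control 3, 2 under quantile normalization and 4 under loess. Its summed signal was 677, 538 and 596 tags in controls and 424, 391 and 574 in dKO libraries, and dKO 3 overlapped the controls. The run of 13 nearest to Slc39a11 on chromosome 11 had 1 higher and 0 lower, as had the run of 13 between Irf2bp2 and Tomm20 on chromosome 8. The run of 13 between 1600014C23Rik and Vegfa, the vascular growth factor gene, on chromosome 17 had 4 lower and 0 higher, and 0 to 4 lower with single libraries left out, the fewest without dKO 2. Under quantile normalization and loess it had 2 lower.

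The region with the highest control mean lies inside Rn18s-rs5, a copy related to 18S ribosomal RNA on chromosome 17, and had 218, 362 and 472 tags in controls and 337, 334 and 528 in dKO libraries, which overlap. Reads from such copies can map to several places, and how they were assigned is not given in the sources used here, so this value is uncertain. Of the 6 strongest, 1 was called: the region 189 kb from Samd9l, a gene of the interferon response, had 135, 117 and 132 tags in controls and 82.0, 78.0 and 114 in dKO libraries (log2 fold change -0.44, SE 0.12, limma adjusted p = 0.0188). That call was lost without any one of control 1, control 3, dKO 1 and dKO 2 (limma adjusted p = 0.0648, 0.0736, 0.0503 and 0.114). It was also lost without centring and with a peak in at least 3 libraries (limma adjusted p = 0.0765 and 0.0739).

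The 3 farthest regions were more than 2000 kb from a protein-coding span, in the gap between Cntnap5b and Cdh20 on chromosome 1. The farthest of all, 2138 kb from Cntnap5b, had 24.2, 20.9 and 24.4 tags in controls and 33.3, 32.8 and 31.1 in dKO libraries, with no overlap (log2 fold change 0.53, SE 0.13, adjusted p = 0.0151 by limma). It was not called without dKO 1 (adjusted p = 0.0701) or dKO 2 (0.117). A neighbour nearer to Cdh20 had 11.5, 11.3 and 11.0 tags in controls and 7.05, 4.60 and 8.69 in dKO libraries (log2 fold change -0.63, SE 0.17, adjusted p = 0.0177 by limma). It too was not called without dKO 1 (adjusted p = 0.0519) or dKO 2 (0.118).

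MicroRNA hairpins lay under 2 far regions. One covers Mir802, a liver microRNA studied in obesity, and had 13.9, 10.2 and 11.3 tags in controls and 10.3, 9.57 and 15.6 in dKO libraries, so the groups overlapped (log2 fold change 0.04, SE 0.17, limma adjusted p = 0.882). The other covers Mir137, known mostly from brain, and had 9.42, 17.1 and 11.2 tags in controls and 8.63, 10.3 and 14.4 in dKO libraries, which also overlap (log2 fold change -0.09, SE 0.21, limma adjusted p = 0.794). Beside the hairpin of Gm51276, 2 regions at 441 and 958 bp were lower (log2 fold changes -0.65 and -0.39, limma adjusted p = 0.0109 and 0.0394), and neither was called without dKO 1 (0.054 and 0.117) or dKO 2 (0.0645 and 0.151). The second was also not called without any one of the controls (0.0597 to 0.101), within the 108 bp class (0.0676), without centring (0.0946), under quantile normalization (0.0828) or under loess (0.0820). The mature sequences from RefSeq are given with the seed, bases 2 to 8, in capitals, to show which microRNAs these open regions hold or adjoin, and no 2 of them share a seed.
mmu-miR-802-5p: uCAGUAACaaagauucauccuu
mmu-miR-802-3p: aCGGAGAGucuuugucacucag
mmu-miR-137-5p: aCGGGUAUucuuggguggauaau
mmu-miR-137-3p: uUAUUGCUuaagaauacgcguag
mmu-miR-12196-3p: uCACAGGUgagcuagaaaguau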

How the data were processed

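ATAC-seq was measured in 6 libraries of sorted liver nuclei, 3 control and 3 dKO. Tools named in the submitters' processing notes are HOMER 4.11, SAMtools 1.10, Picard and Trim Galore 0.6.4, with the build mm10. Aligner, read filters, cut-site shift and HOMER's settings: not given in the sources used here. Per the file headers, each deposited list gives per peak a score, a p-value, folds over surroundings (ratios), the focus ratio (a fraction) and the normalized tag count, a signal scaled to depth. Lists held 68316 to 84614 peaks, and total depth is unknown. Peaks on chromosome Y (17 to 24 a library) were left out.

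A region's value was the highest normalized tag count per library. limma 3.58.1 (R 4.3.3, mean-variance trend) compared log2(value + 1), centred on each library's median, without other terms, and fold changes on this scale understate changes of weak regions. The test was checked on simulated data. Gene spans, without strand or exons, and promoter windows came from RefSeq GRCm38.p6, so exonic or intronic position was not analysed here. The members, gene lists and tests were chosen with earlier results of these data known. Named were the 12 called regions without overlap with the smallest p in each direction, the 6 strongest in controls, the 3 farthest, the 3 longest runs, up to 4 called regions a list, and, chosen after values were seen, lncRNA starts, microRNAs and gaps. Alternatives covered scaling, pseudocount, filters, thresholds, a replicate block, width class and left-out libraries.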

Additional observations from a re-analysis of the deposited data

How the results depend on the processing

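The counts of far regions called depend most on which libraries enter. With single libraries left out there were 150 to 598 higher and 282 to 1084 lower far regions, the fewest without dKO 2 and then without dKO 1. Within the wide peak class limma called 0 higher and 0 lower, with 1 dKO library. Fewer regions entered with a mean of at least 10 tags (622 lower, 3394 regions), peaks of at least the median score of their list (135 higher, 273 lower), a distance over 100 kb (249 and 557) and over 50 kb from every gene type (94 and 197), and more entered over 20 kb (822 and 1478). Other scalings, pseudocounts and merging kept counts within 1.5 times, with 308 to 435 higher and 819 to 943 lower under no centring, quantile normalization, cyclic loess and pseudocount 0.1.

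The far minus other median was -0.43 to -0.45 with single libraries left out, where p = 0.0625 is the smallest 5 libraries allow in the exact test. It was -0.22 for peaks of at least the median score and -0.32 for a mean of at least 10 tags. Its group difference turned to 0.0015 (exact permutation p = 0.9) with a peak in at least 3 libraries. It was -0.022 (exact permutation p = 0.5) at over 20 kb, and it lay between -0.04 and -0.07 with single libraries left out. Whether equal replicate numbers mark pairs was not settled. Correlations of deviations were 0.146, -0.03 and 0.234 for equal numbers. For unequal numbers they ran from -0.23 to 0.157, so the ranges overlapped. A fit with a replicate block gave 583 higher and 1148 lower.

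Of 69 single regions recomputed, 57 were called, 12 of these lost the call under some alternative other than the wide class, and the 24 leading regions lost it in none other than that class, where 0 of 69 were called. Sign changes were seen only in regions that were not called. The Setd4 (Mir802) region was at -0.017 without centring, -0.0094 under quantile normalization, -0.021 under loess, -0.32 within the narrow class and -0.075 to 0.16 with single libraries left out. The Gm15319 region was at 0.14, 0.18 and 0.024 under quantile normalization, loess and within the wide class, and at -0.053 to 0.026 with single libraries left out. The Dpyd (Mir137) region was at 0.044 with width class as a term, 0.13 within the narrow class and -0.26 to 0.14 with single libraries left out. The Pex2 region was at -0.00062 under quantile normalization and -0.16 to 0.40 with single libraries left out, the 9530057J20Rik region at 0.087 under loess, and the Esp38 region at -0.015 to 0.53 with single libraries left out. The cause of these changes was not tested.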
